A study of Mus musculus with 7 samples.

Results

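Maturation of control mouse oocytes was followed from the germinal vesicle (GV) stage, at which a fully grown oocyte is held in meiotic prophase, to metaphase II (MII), at which it waits for fertilisation. The comparison was set by the sample labels and used 5 of the 7 libraries of the series, 2 of GV oocytes and 3 of MII oocytes cultured with the solvent dimethylsulfoxide (DMSO). The other 2 libraries, of MII oocytes treated with the RNA G-quadruplex ligand BYBX, were not used. The study followed RNA G-quadruplexes through maturation, and the 5 libraries used here measure how mRNA levels change over it without the ligand.

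Each library was made by Smart-seq2 from 10 oocytes taken from the ovary, and the label of every one of the 5 libraries gives the genotype as Control. The labels list the treatment of the GV libraries as NO and that of the MII libraries as DMSO, whereas the study's methods speak of DMSO for control oocytes of both stages. The presence of the solvent in the GV samples is therefore uncertain and cannot be told apart from the stage. Oocytes came from 4-week-old females of C57BL/6 background primed with pregnant mare serum gonadotropin, and were collected in M2 and cultured in M16 medium. The animals behind each pool are not given, nor whether pools of 1 stage came from separate females, so p-values measure only the spread between these libraries. Maturation took place in culture, outside the follicle.

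A fully grown oocyte carries a large store of maternal mRNA and is transcriptionally silent. During maturation many of these mRNAs lose their poly(A) tails and are degraded, through the CCR4-NOT deadenylase and its adaptor BTG4, decapping by DCP1A and DCP2, and uridylation by TUT4 and TUT7. Other mRNAs are held in GV oocytes with short tails and gain longer ones on resumption of meiosis, when the protein CPEB1 bound to the cytoplasmic polyadenylation element, a U-rich stretch close to the polyadenylation signal, is phosphorylated. Reverse transcription in these libraries started from oligo-dT, so the values follow polyadenylated RNA. Loss of an mRNA, shortening of its tail and less RNA per oocyte cannot be told apart, and likewise a gain of RNA and a gain of tail.

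The sites below were shown because this element returns in the results on the sequence features of kept and lost mRNAs. They are genomic reference sequences of GRCm38, read 5′ to 3′ on the transcript's strand, from the 3′ end of the longest protein-coding transcript in GENCODE vM21, and all lie in the 3′ UTR. Capitals mark the element, TTTTAT or TTTTAAT, and the polyadenylation signal, AATAAA or ATTAAA. In each printed pair the signal follows the element, whereas in the counts over all entries below they may overlap. The genes were chosen after their values were seen. In the group with an element stood Bcl2l10 (chr9:75351591-75351620, plus strand), Cdc20 (chr4:118432911-118432940, minus), Cks2 (chr13:51650610-51650639, plus), Cnot7 (chr8:40493036-40493065, minus), Cnot8 (chr11:58118557-58118586, plus) and Gdf9 (chr11:53437866-53437895, plus).
Bcl2l10: TTTTAATaacttcaaattcttAATAAAtgt
Cdc20: TTTTATtttattttttctAATAAAgttcgt
Cks2: TTTTATtttacctgttttgttaAATAAAgt
Cnot7: ttaaggtacaTTTTATatcAATAAAaatac
Cnot8: TTTTAATtttgtaaAATAAAgattgctttt
Gdf9: TTTTATgtgacggaagAATAAActgttgat

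The next 5 genes have a signal and no match to the element in the last 100 bases, namely Ftdc1 (chr16:58613692-58613721, minus strand), Zp2 (chr7:120126784-120126813, minus), Tle6 (chr10:81590919-81590948, minus), Npm2 (chr14:70647316-70647345, minus) and Pttg1 (chr11:43420283-43420312, minus). The first 4 kept under 10% of their GV level in MII oocytes, and Pttg1 was among the most abundant in MII oocytes.
Ftdc1: tctttctagttctcattgatgaaaAATAAA
Zp2: ccttgctgtttgtctttaaactctAATAAA
Tle6: gtgtgcagatcccgagttgcgtgtAATAAA
Npm2: cccagcaagctcgcctagggccacAATAAA
Pttg1: tagtttctgtatgtatgttgtattAATAAA

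Levels were read as FPKM, fragments mapped to a gene per unit of its exon length and of library size, which the authors normalised to an added ERCC spike-in, a mix of synthetic RNAs of known amount, and, where batches differed, to their GV samples. The summed FPKM was 489569 and 402113 in the GV libraries and 109732, 123567 and 127254 in the MII libraries. Every MII library lay below both GV libraries, and the MII mean was 27.0% of the GV mean (exact permutation test, two-sided, p = 0.1, the smallest p that 2 against 3 libraries allow). Across the 9382 entries with a mean of the 2 group means of at least 1 FPKM, Spearman correlations were 0.962 to 0.978 between libraries of 1 stage and 0.609 to 0.638 between stages, a description across genes. All 12 oocyte markers were tested, whereas 4 of 30 granulosa and cumulus cell markers and 0 of 8 listed erythrocyte markers passed the filter. The 30 follicle cell markers summed to 0.00507% of the GV total and 0.00266% of the MII total, and Areg, Ereg, Ptx3 and Vcan were listed at 0. Read depth is unknown, since the tables hold no counts.

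On the deposited scale, maturation left a lower level of most maternal mRNAs. With limma on log2(FPKM + 1) at a Benjamini-Hochberg adjusted p under 0.05, 8370 entries (89.2%) were lower in MII oocytes and 24 (0.256%) were higher. The libraries of the 2 stages did not overlap for 93% of entries. Of the 5185 entries with at least 10 FPKM in GV oocytes, the median kept 14.5% of its GV level, and the medians in the 3 MII libraries were 13.4, 14.2 and 15.5%. Under 10% was left of 2164 of these entries (41.7%) and under 1% of 414 (7.98%), whereas 978 (18.9%) kept at least 50% and 68 (1.31%) kept their full level or more. The share left thus spanned more than 100-fold between mRNAs.

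These directions rest on the spike-in scaling, whose factors are not stated. With every library set to the same total FPKM, the median log2 change moved from −1.80 to −0.58, a shift of 1.21, and the calls became 4773 lower and 2184 higher, so that 31.4% of calls were higher against 0.286% on the deposited scale. Centring each library on its median gave 2566 lower and 4842 higher (65.4% of calls). The 2 scales can therefore give opposite directions for an mRNA that kept more than about 27.0% and less than 100% of its level, and such cases are given below.

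A scale that no factor can change was obtained by ranking the tested entries within each library, from the lowest at 0 to the highest at 100 percentile points. By limma on these ranks, 2959 entries (31.5%) fell and 3834 (40.9%) rose, and the median entry gained 2.22 points. Ranks did not overlap between the stages for 81.7% of entries. The order of mRNAs was rearranged in both directions, with 1557 entries falling by more than 25 points and 1458 entries rising by more than 25. Of the entries called lower on the deposited scale, 2852 rose in rank. Of the 988 entries without a call on the deposited scale, 959 rose in rank. Ranks are relative, so a rise says only that an mRNA lost less of its level than others or gained. They are also bounded, so an abundant mRNA can lose most of its level within a few points. The median rank change went from 20.4 points in the lowest decile of GV level to −4.03 in the highest. Entries of the lowest decile with under 2 FPKM in GV passed the filter only through their MII level, and with deciles of the mean of both stages the change went from 11.3 to −1.06 points, while the median share left went from 13.8 to 19.8% in place of 24.9 to 12.1%.

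**Figure D1:**
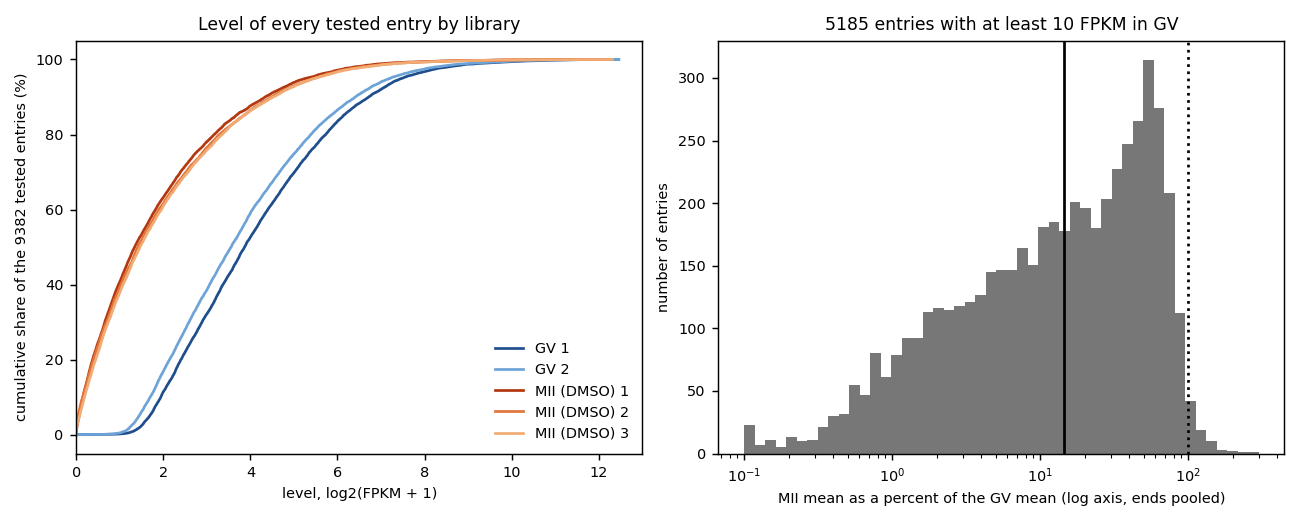
Left, cumulative share (%) of the 9382 tested entries against their level, log2(FPKM + 1), with 1 line for each GV and MII (DMSO) library. Right, number of entries against the MII mean as a percent of the GV mean (log axis) for the 5185 entries with at least 10 FPKM in GV, where the solid line is the median of 14.5% and the dotted line is 100%. The 3 MII curves lie to the left of both GV curves, and the shares left spread from under 1% to over 100%.

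The MII pool was more concentrated on few mRNAs. The 10 most abundant entries held 7.26 and 7.49% of the summed FPKM in the GV libraries and 16.1, 16.3 and 16.9% in the MII libraries, and 441 and 406 entries against 169, 160 and 163 made up 50% of it. The groups did not overlap in either measure. The top 10 of each stage shared 4 entries and the top 100 shared 53. Bcl2l10, a BCL2 family member abundant in oocytes, stood at 5037 and 4900 FPKM in GV and at 3411, 4779 and 5102 FPKM in MII. The stages overlapped, and it was first in rank in MII oocytes (log2 change −0.19 ± 0.21 SE, adjusted p = 0.402). Pttg1, which encodes securin, the inhibitor of separase, stood at 3099 and 3214 FPKM in GV and at 1897, 2504 and 3087 FPKM in MII, with 79.1% left (adjusted p = 0.136). H1f8, the oocyte linker histone, kept 73.3% (adjusted p = 0.0564, 0.048 without MII 3) and Zbed3 kept 66.8% (adjusted p = 0.0787, 0.043 without GV 2 and 0.011 without MII 1). Elobl, the most abundant entry in GV oocytes and named for that after its values were seen, went from 5606 and 5654 FPKM to 140, 178 and 266 FPKM. Rn45s, the ribosomal RNA precursor, was listed at 2854 and 1889 FPKM in GV and at 2125, 0 and 0 FPKM in MII, so that it varied more among the MII libraries than between the stages.

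Gene lists for 47 functional classes showed in which parts of the maternal store mRNAs were lost, kept or higher in rank. The counts below are of tested entries and stand against 31.5% falling and 40.9% rising in rank among all tested entries. Counts on the deposited scale stand against 89.2% lower and 0.256% higher among all tested entries. Median rank changes lay below the median of all tested entries in 30 classes and above it in 17. They ran from −31.0 points, for small-subunit ribosomal proteins, to 17.1 points, for cohesin and condensin. The lists were not tested as sets.

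**Figure D2:**
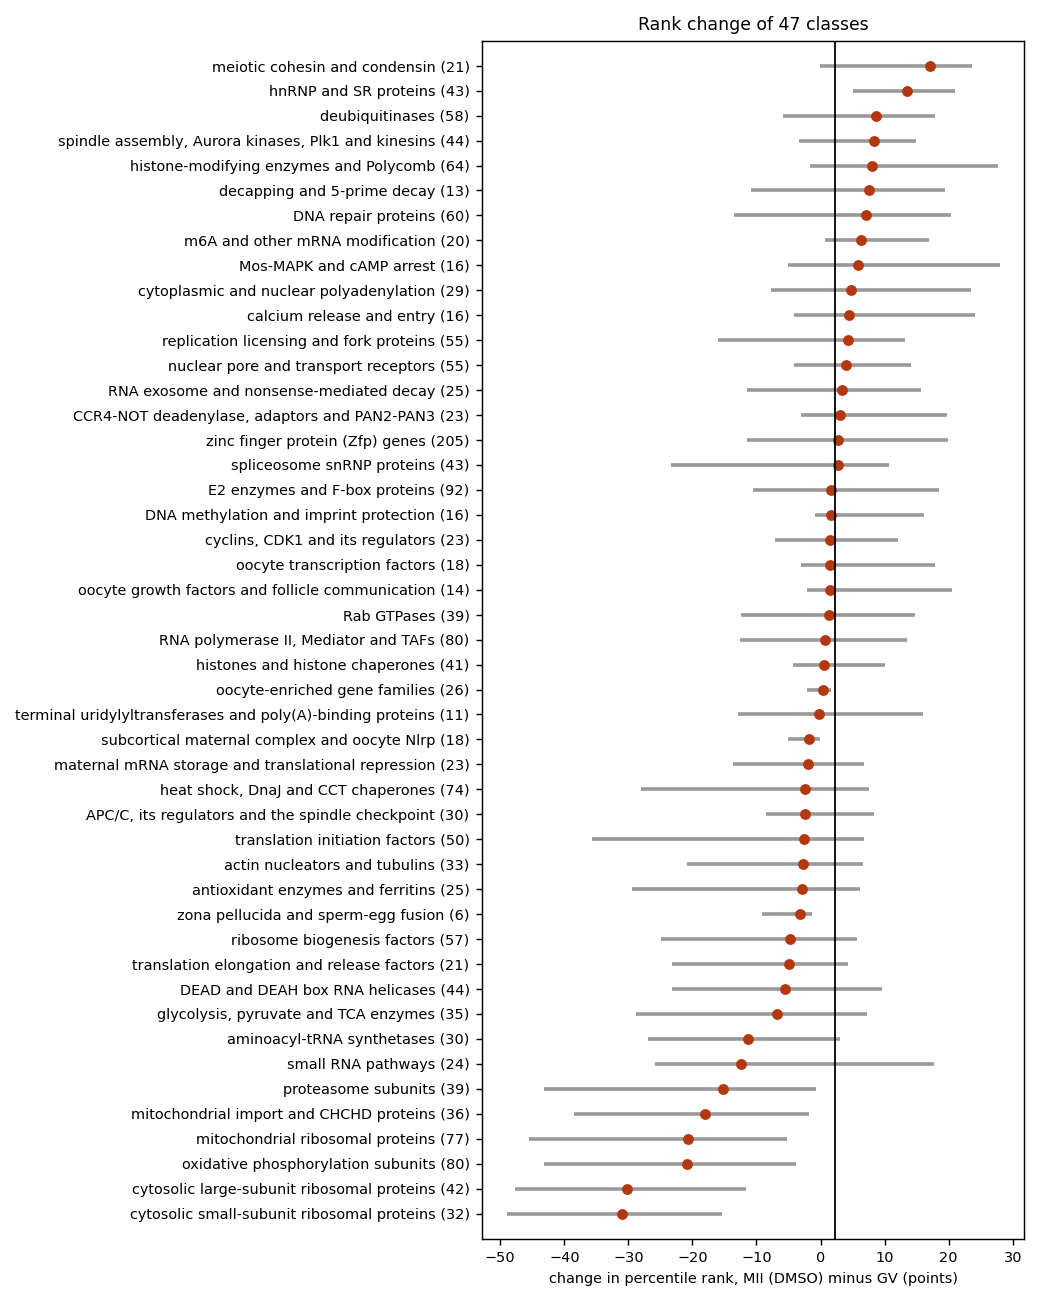
Change in percentile rank from GV to MII (DMSO), in points, for 47 functional classes, with the number of tested entries in parentheses. Points are class medians, bars span the quartiles of the entries and the vertical line is the median of all tested entries, 2.22 points. Ribosomal, mitochondrial and proteasome classes lie at the low end, and cohesin and condensin (17.1 points) and hnRNP and SR proteins (13.5 points) at the high end.

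Messages for the egg coat and for sperm-egg fusion had a median of 3.83% left, the lowest of the lists of oocyte-specific genes. Of 8 genes 6 were tested. All 6 were lower on the deposited scale, where 89.2% of all tested entries were lower. In rank 4 fell and 0 rose. Zp3, which encodes a zona pellucida protein that builds the coat around the oocyte, stood at 3124 and 2773 FPKM in GV and at 73.4, 59.3 and 106 FPKM in MII. Every MII library was far below both GV libraries, with 2.70% left (log2 change −5.23 ± 0.28 SE, adjusted p = 8.75e-11). Zp2 kept 3.56% and Zp1 11.1%. Cd9, the tetraspanin needed for gamete fusion, went from 329 and 298 FPKM to 2.204, 1.63 and 5.29 FPKM, and fell by 38.5 rank points (adjusted p = 0.000795). Astl, the protease released from cortical granules that cleaves ZP2 at fertilisation, kept the most, 40.6% (log2 change −1.32 ± 0.28 SE, adjusted p = 0.000328, but 0.56 with equal totals). The class held 1.51% of the summed FPKM in GV and 0.368% in MII, with no overlap between stages, and without Zp3 0.844% and 0.302%.

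The secreted growth factors of the oocyte differed in how much was left. Gdf9, a TGF-β family ligand that acts on the surrounding follicle cells, stood at 2875 and 2080 FPKM in GV and at 947, 1003 and 972 FPKM in MII. All MII libraries were below both GV libraries at 39.3% of the level (log2 change −1.33 ± 0.22 SE, adjusted p = 3.85e-05), a direction that turned to 0.56 with equal totals, while its rank did not pass the test (adjusted p = 0.915). Its partner Bmp15 went from 1168 and 863 FPKM to 246, 225 and 180 FPKM, 21.4% left. Fgf8, a growth factor that acts on cumulus cells, kept 1.41% and fell by 38.4 points. Over the 14 tested entries of 19 in the list of growth factors and follicle communication, 2 fell and 6 rose in rank.

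The subcortical maternal complex, a protein assembly of the oocyte that the embryo needs to pass its first divisions, fell in rank or did not pass the test. Of 18 tested entries, with the related Nlrp genes, 7 fell in rank and 1 rose. Their median GV rank was 97.6, close to the top of the scale, so there was little room to rise. The median share left was 16.4%, and 7 of the 18 kept under 10%, against 14.5% and 41.7% for all entries with at least 10 FPKM in GV. Zbed3, the most abundant of the list in GV oocytes, kept 66.8%. Ooep went from 1537 and 1684 FPKM to 24.4, 43.8 and 48.4 FPKM, 2.41% left, and Tle6 from 2356 and 1529 FPKM to 98.2, 71.5 and 76.8 FPKM, 4.23% left. Neither gene's libraries overlapped between stages. Nlrp5, also called Mater, kept 6.70%. Padi6, needed for the cytoplasmic lattices of the oocyte, kept 14.5%, which was also the median of entries with at least 10 FPKM in GV. Nlrp4c was the member that rose in rank (16.6 points, adjusted p = 0.0204, 0.15 without GV 2, with 28.6% left). Npm2, a nuclear histone chaperone of the oocyte outside this complex, went from 2145 and 2065 FPKM to 67.9, 138 and 138 FPKM.

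Several multigene families expressed in oocytes stood apart by how much they kept. Of 26 tested entries of the Oosp, Obox, Tcl1, Oas1, Oog and related families, 11 were lower and 1 higher on the deposited scale. Among all tested entries 89.2% were lower and 0.256% higher. The median share left over the 25 with at least 10 FPKM was 76.1%, and in the 3 MII libraries 68.5, 81.8 and 74.3%. Of these 25 entries 16 kept at least 50% and 6 kept under 10%, so the families were split rather than uniform. In rank 7 fell, 10 rose and 9 did not pass the test, and the median change was 0.43 points from a median GV rank of 98.3, close to the top of the scale. Their share of the summed FPKM was 4.14 and 4.40% in GV and 9.99, 12.1 and 11.3% in MII, without overlap, and without Bcl2l10 it was 3.11 and 3.19% against 6.88, 8.21 and 7.32%. Members of these families are similar in sequence and only uniquely mapped reads were used, so single values are uncertain.

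Omt2b, named for oocyte maturation, had the largest rise on the deposited scale among those called with at least 10 FPKM and no overlap. It stood at 59.9 and 57.6 FPKM in GV and at 117, 350 and 281 FPKM in MII, every MII library above both GV libraries and MII 1 lowest of the 3 (log2 change 1.93 ± 0.37 SE, adjusted p = 0.000154, and 15.2 rank points). Oas1f, a 2′-5′-oligoadenylate synthetase family member, was at the other end, from 21.4 and 19.5 FPKM to 0.185, 0.171 and 0.301 FPKM, a fall of 48.1 points.

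**Figure D3:**
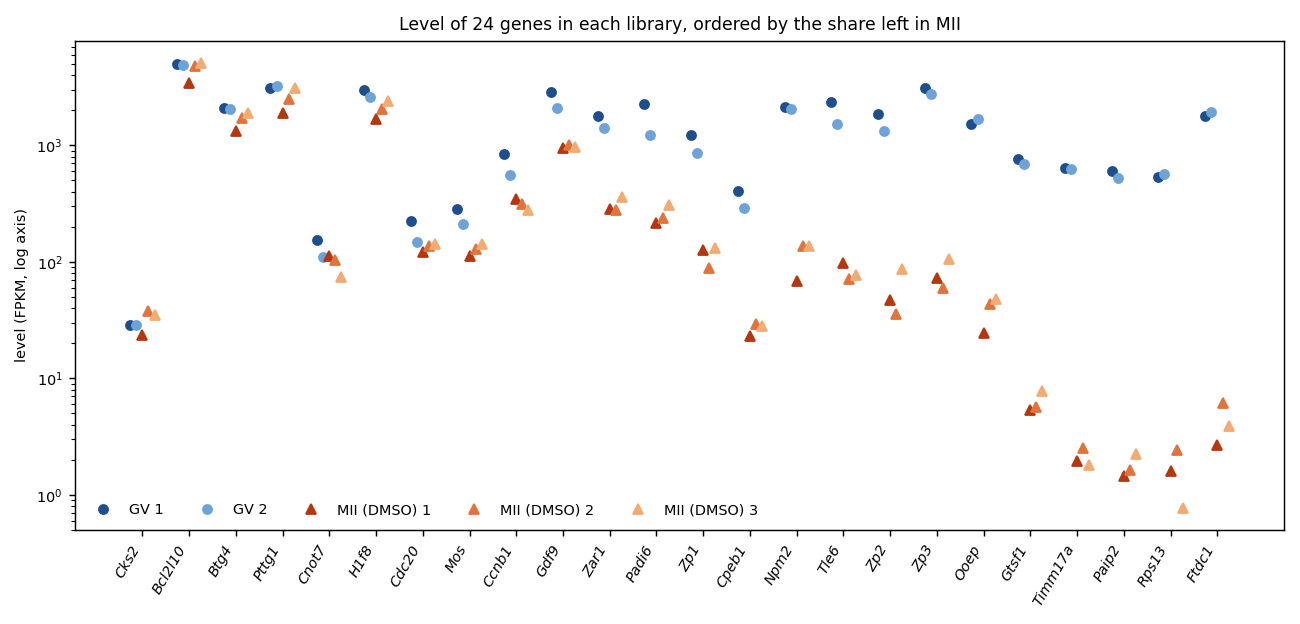
Level in FPKM (log axis) of 24 genes in each GV library (circles) and MII (DMSO) library (triangles), ordered by the share of the GV level left in MII. Cks2, Bcl2l10, Btg4 and Pttg1 at the left have overlapping or nearby stages, and Timm17a, Paip2, Rps13 and Ftdc1 at the right lie more than 100-fold lower in MII.

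The lowest class medians of the share left were those of the cytosolic ribosome, the machinery of protein synthesis. Of 42 tested large-subunit ribosomal protein entries all 42 were lower on the deposited scale, 35 fell in rank and 2 rose. Of 32 small-subunit entries 30 were lower, 25 fell in rank and 3 rose. Among all tested entries 89.2% were lower on the deposited scale and 31.5% fell in rank. Median shares left were 1.78% and 1.35%, and median rank changes −30.2 and −31.0 points. Rps13, a small-subunit protein, stood at 537 and 567 FPKM in GV and at 1.60, 2.43 and 0.774 FPKM in MII. The 3 MII values were more than 100-fold below the GV values, with 0.290% left (log2 change −7.78 ± 0.30 SE, adjusted p = 1.43e-11). Rps4x kept 0.365%, and Rpl10, among the most abundant large-subunit mRNAs, went from 588 and 583 FPKM to 44.5, 51.9 and 93.2 FPKM. Rpl22 (29.6% left, 12.5 points, adjusted p = 0.069 without GV 1) and Rps15a (78.5% left, 31.7 points) rose in rank against the rest. Rps27l, a paralog that the name pattern took in and that was singled out after its values were seen, kept 187%. Ribosomal protein genes have many processed copies in the genome and only uniquely mapped reads were used, and Rpl7a, at 74.0 and 13.1 FPKM in GV, was listed at 0 in all 3 MII libraries, so single members are uncertain.

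Elongation factors were also lower in MII oocytes. Eef1a1, which brings aminoacyl-tRNA to the ribosome, went from 1554 and 1243 FPKM to 20.2, 20.8 and 26.2 FPKM, 1.60% left, and Eef1d kept 0.506%. Of 21 tested elongation and release factors 10 fell in rank and 4 rose, and of 30 aminoacyl-tRNA synthetase entries 17 fell and 7 rose. Initiation factors were less one-sided, with 24 of 50 falling and 19 rising. Eif4h kept 0.421%, while Eif2ak3, a kinase that phosphorylates eIF2α, stood at 12.8 and 14.1 FPKM in GV and at 7.38, 14.7 and 15.3 FPKM in MII. It rose by 31.1 rank points with overlapping FPKM (adjusted p = 0.000307 for the rank). Of 57 ribosome biogenesis entries 26 fell and 12 rose.

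Nuclear-encoded mitochondrial mRNAs followed the same course. Of 77 tested mitochondrial ribosomal protein entries all 77 were lower on the deposited scale, against 89.2% of all tested entries. In rank 54 fell and 8 rose, and the median kept 2.96%. Mrpl12 went from 337 and 309 FPKM to 0.275, 0.336 and 1.31 FPKM, and Mrpl33 from 41.0 and 42.0 FPKM to 0, 0.0798 and 0.0767 FPKM. Mrpl3 was the exception with the most left, 52.0%, and rose by 12.9 points (adjusted p = 0.00016). Of 80 oxidative phosphorylation subunits 54 fell in rank and 6 rose, with a median of 3.19% left. Ndufc1, a complex I subunit, stood at 45.0 and 34.4 FPKM in GV and was listed at 0.0944, 0 and 0 FPKM in MII. Cox5a, a subunit of complex IV and the most abundant at the GV stage, kept 8.94%, and Cox6b2, the testis-type isoform of another complex IV subunit, stood at 33.4 and 37.6 FPKM in GV and at 29.9, 58.6 and 56.4 FPKM in MII (adjusted p = 0.262, 0.018 without MII 1) and rose by 20.4 points.

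Protein import into mitochondria gave the same picture. Of 36 import and CHCHD entries 25 fell in rank and 4 rose, with a median of 3.91% left. Timm17a, a channel subunit of the inner membrane translocase, went from 638 and 625 FPKM to 1.94, 2.53 and 1.79 FPKM, 0.331% left (log2 change −7.69 ± 0.26 SE, adjusted p = 1.43e-11). Of 35 enzymes of glycolysis and the TCA cycle 17 fell and 8 rose. Mdh2, mitochondrial malate dehydrogenase, kept 0.195%, while Ldhb, a lactate dehydrogenase subunit, went from 1579 and 1400 FPKM to 468, 442 and 682 FPKM with no call in rank (adjusted p = 0.997) and a lower level on the deposited scale (log2 change −1.51 ± 0.25 SE, adjusted p = 3.22e-05, but 0.37 with equal totals). Of 25 antioxidant and ferritin entries 12 fell and 4 rose, and Gpx4, the phospholipid hydroperoxide peroxidase, kept 1.04%. No entries of the mitochondrial genome are listed.

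The proteasome, which degrades ubiquitinated proteins, also lay among the lower classes. Of 39 tested subunit entries 25 fell in rank and 7 rose, with 7.31% left at the median. Psmb7, a catalytic subunit, went from 216 and 201 FPKM to 0.280, 0.899 and 0.412 FPKM. Psmd4, a ubiquitin receptor and the most abundant, kept 7.49%, and Psme4, an activator cap, kept 73.9% (adjusted p = 0.136) and rose by 24.6 points. The enzymes that place and remove ubiquitin did not share this, with 32 of 92 E2 and F-box entries falling and 40 rising, and 14 of 58 deubiquitinases falling and 28 rising.

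**Figure D4:**
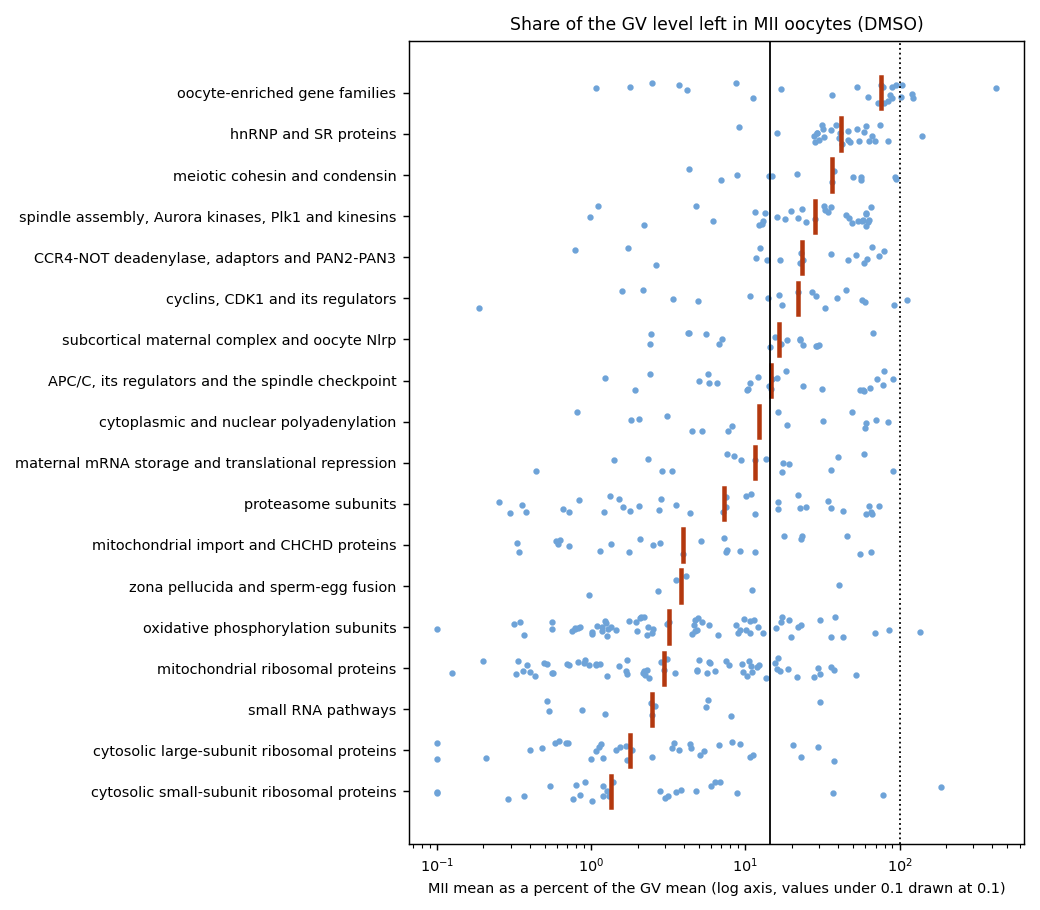
MII mean as a percent of the GV mean (log axis, values under 0.1 drawn at 0.1) for the entries of 18 classes with at least 10 FPKM in GV. Blue points are entries, red marks are class medians, the solid line is the median of all such entries (14.5%) and the dotted line is 100%. Class medians run from 1.35% for small-subunit ribosomal proteins to 76.1% for oocyte-enriched families.

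The machinery that removes maternal mRNA was split between members. In the list of CCR4-NOT subunits, adaptors and PAN2-PAN3, 3 of 23 tested entries fell in rank and 11 rose, and its share of the summed FPKM went from 0.634% to 1.60%. Btg4 alone held 73.9% of the class sum in GV and 85.0% in MII, and without it the share went from 0.164% to 0.242%. Btg4, the adaptor that recruits the deadenylase to maternal mRNA, stood at 2090 and 2062 FPKM in GV and at 1317, 1720 and 1899 FPKM in MII. The MII libraries were all lower but did not pass the test, with 79.2% left (log2 change −0.35 ± 0.22 SE, adjusted p = 0.144). Cnot7, a catalytic subunit, went from 154 and 109 FPKM to 113, 104 and 74.3 FPKM, with overlapping stages and 73.8% left, and rose by 4.71 points (adjusted p = 0.00064). Cnot8, its paralog, kept 61.9% (log2 change −0.70 ± 0.28 SE, adjusted p = 0.0287, 0.18 without GV 1, but a change of 1.17 with equal totals) and rose by 4.71 points. Cnot6l, the other kind of catalytic subunit, kept 46.6% (log2 change −1.09, adjusted p = 0.00272, 0.064 without GV 2, but a change of 0.73 with equal totals). Cnot10, a non-catalytic subunit, went from 23.2 and 15.7 FPKM to 0.254, 0.277 and 0.479 FPKM and fell by 41.5 points.

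Decapping and decay of the body of the mRNA were mixed as well. In the decapping list 3 of 13 entries fell and 7 rose in rank. Dcp1a kept 71.0% (adjusted p = 0.188, 0.030 without GV 2) and rose by 5.88 points. Dcp2, the decapping enzyme, was at 5.12 and 4.13 FPKM in GV and at 1.35, 2.06 and 1.88 FPKM in MII, and rose by 26.3 points (log2 change −1.03, adjusted p = 0.00036, but 0.36 with equal totals). Of 25 exosome and nonsense-mediated decay entries 7 fell and 11 rose, near the shares among all tested entries. Exosc5, an exosome core subunit, kept 0.560%, whereas Upf1, the helicase of nonsense-mediated decay, stood at 17.4 and 21.8 FPKM in GV and at 18.3, 28.4 and 31.6 FPKM in MII (adjusted p = 0.243, 0.046 without MII 1, rank change 29.6 points).

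Proteins that bind or modify the tail diverged. Among 11 tested uridylyltransferases and poly(A)-binding proteins 5 fell in rank and 4 rose. Paip2, which binds poly(A)-binding protein and inhibits translation, went from 609 and 521 FPKM to 1.44, 1.63 and 2.25 FPKM, 0.314% left and a fall of 47.8 points (log2 change −7.68 ± 0.27 SE, adjusted p = 1.43e-11). The oocyte and embryo poly(A)-binding protein gene Pabpc1l kept 2.76% and Pabpn1l, a BTG4 partner, 10.9%. Pabpn1, the nuclear form, stood at 26.5 and 34.0 FPKM in GV and at 18.7, 65.4 and 55.4 FPKM in MII, overlapping on the deposited scale (adjusted p = 0.319, 0.0026 without MII 1) and higher by 22.8 points in rank (adjusted p = 0.000739). Tut7 kept 42.4% (log2 change −0.82, adjusted p = 0.00101, but 0.44 with equal totals), and Tut4 was at 0.163 and 0.146 FPKM in GV, too low to be tested.

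Factors that store maternal mRNA fell in rank more often than they rose, whereas those that lengthen its tail did not. In the storage and translational repression list 11 of 23 entries fell in rank (47.8%) and 7 rose (30.4%), against 31.5% and 40.9% of all tested entries. Zar1, an oocyte RNA-binding protein that stabilises maternal mRNA, went from 1774 and 1420 FPKM to 286, 279 and 358 FPKM, 19.3% left, and its rank did not pass the test (adjusted p = 0.578). Its relative Zar1l went from 211 and 246 FPKM to 0.563, 1.26 and 1.17 FPKM and fell by 58.5 points. Ybx2, also called MSY2, which coats stored mRNA, kept 9.34%, while Lsm14a, a component of storage granules, kept 90.6% with overlapping stages (adjusted p = 0.6) and rose by 11.9 points. In the polyadenylation list 9 of 29 fell (31.0%), near the share of all tested entries, and 14 rose (48.3%). Cpeb1, the protein that reads the polyadenylation element, went from 403 and 293 FPKM to 23.0, 29.3 and 28.2 FPKM, 7.72% left. Tent2, also called GLD-2, a cytoplasmic poly(A) polymerase, kept 83.7% (adjusted p = 0.443) and rose by 29.1 points.

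Small RNA pathway mRNAs fell in rank more often than they rose. Of 24 tested entries 14 fell in rank and 9 rose, the median change was −12.5 points, and their share of the summed FPKM went from 0.291% to 0.0379% without overlap, and without Gtsf1 from 0.127% to 0.0326%. Gtsf1, a PIWI pathway zinc finger protein, went from 761 and 692 FPKM to 5.39, 5.66 and 7.87 FPKM, 0.868% left. Henmt1, which methylates the 3′ ends of piRNAs, kept 0.516%. Dicer1, which cuts the precursors of the endogenous siRNAs of mouse oocytes, kept 30.5% (log2 change −1.57, adjusted p = 7.74e-05, but 0.17 with equal totals) and rose by 11.2 points.

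The mRNAs of the meiotic cell cycle engine went in both directions. Ccnb1, which encodes cyclin B1, stood at 838 and 553 FPKM in GV and at 345, 315 and 279 FPKM in MII, 45.0% left (log2 change −1.13 ± 0.26 SE, adjusted p = 0.000748, but 0.76 with equal totals). Cdk1, the kinase that cyclin B1 activates, was at 8.30 and 8.41 FPKM in GV and at 0.0138, 0.00784 and 0.0819 FPKM in MII, a fall of 36.0 points. The 2 subunits of maturation-promoting factor thus stood at 45.0% and 0.413% of their GV levels. Cdc25c, the phosphatase that activates CDK1, kept 0.188%, and Wee2, the oocyte kinase that inhibits it, kept 32.8% (log2 change −1.57, adjusted p = 0.000391, 0.053 without GV 1, but a change of 0.30 with equal totals). Ccno, a cyclin abundant in GV oocytes, kept 3.38%. Cks2, a small CDK1-binding protein, stood at 28.9 and 28.6 FPKM in GV and at 23.3, 37.9 and 35.3 FPKM in MII and rose from a mean rank of 70.8 to 93.2 (adjusted p = 9.65e-05). Over the list 6 of 23 fell in rank (26.1%) and 9 rose (39.1%), near the 31.5% and 40.9% of all tested entries.

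The mRNAs of the anaphase-promoting complex, which triggers separation of chromosomes, and of its regulators held both falls and rises in rank. Of 30 tested entries 9 fell in rank (30%) and 10 rose (33.3%), against 31.5% and 40.9% of all tested entries. Cdc20, the activator of the complex, went from 226 and 149 FPKM to 121, 137 and 142 FPKM, 71.2% left (adjusted p = 0.12, 0.032 without GV 2), and rose by 3.10 points. Fbxo43, also called EMI2, the inhibitor that holds the MII arrest, kept 63.9% (adjusted p = 0.0523, 0.019 without GV 2) and rose by 9.84 points. Anapc10, a core subunit, kept 90.5% and rose by 25.6 points. Bub1, a checkpoint kinase, went from 55.0 and 37.1 FPKM to 0.551, 0.741 and 0.409 FPKM and fell by 51.6 points. Mos, the kinase that starts the MAPK cascade of the arrest, went from 283 and 210 FPKM to 113, 129 and 144 FPKM, 52.1% left (log2 change −0.92 ± 0.27 SE, adjusted p = 0.00412, 0.054 without GV 1, but a change of 0.95 with equal totals), whereas Mapk3, which encodes a kinase at its end, kept 8.50%.

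Spindle and chromosome genes rose in rank more often than they fell, with 25 rising and 7 falling of 44 tested spindle entries. The spindle list's share of the summed FPKM went the other way, from 0.893% to 0.586% without overlap between stages. Without Birc5, its most abundant member in GV, the share went from 0.505% to 0.517%. Tpx2, which activates Aurora A on the spindle, kept 58.1% (log2 change −0.74, adjusted p = 0.0183, 0.096 without GV 1, but a change of 1.10 with equal totals) and rose by 10.8 points, and Sgo2a, the shugoshin that protects centromeric cohesin, kept 63.7% (adjusted p = 0.0565, 0.030 without GV 2) and rose by 30.4 points. Aurka kept 12.9% and fell by 3.49 points, Plk1 kept 16.1% with no call in rank (adjusted p = 0.188, 0.015 without MII 1), and Birc5, which encodes survivin of the chromosomal passenger complex, went from 1783 and 1658 FPKM to 68.3, 78.5 and 101 FPKM. Kif17, a kinesin, kept 1.11%. In the cohesin and condensin list 14 of 21 entries rose and 2 fell, with the highest class median, 17.1 points. Ncapg2, a condensin II subunit, kept 93.9% with overlapping stages (adjusted p = 0.74) and rose by 33.0 points, while Ncaph2, another subunit of the same complex, kept 4.31% and fell by 25.2 points.

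Splicing regulators, proteins that select splice sites or package pre-mRNA, rose in rank more often than they fell. Of 43 hnRNP and SR protein entries 29 rose in rank and 2 fell, the median of those with at least 10 FPKM kept 41.7%, and the per-library class median ranks were 58.2 and 65.8 in GV and 80.6, 82.2 and 80.8 in MII. Srrm1, a splicing coactivator, stood at 17.4 and 18.3 FPKM in GV and at 20.3, 26.3 and 27.9 FPKM in MII, above both GV libraries in each case but short of the threshold on the deposited scale (adjusted p = 0.126, 0.045 without MII 1), and rose by 31.5 points. The 2 that fell were Srsf2, with 9.13% left (adjusted p = 0.0108 for the rank, 0.083 without GV 2), and Srsf9, named for that after its values were seen, with 2.94% left. The core snRNP proteins were balanced, with 16 of 43 falling and 16 rising. Snrpe, a core Sm protein, was among the 24 entries higher on the deposited scale, from 21.8 and 24.2 FPKM to 28.3, 73.8 and 62.5 FPKM (log2 change 1.11 ± 0.35 SE, adjusted p = 0.00767, 0.15 without GV 1 and 0.10 without GV 2), while Snrpc of the U1 particle kept 0.545%.

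Regulators of DNA methylation ranged from little left to most kept. Of 16 DNA methylation and imprint protection entries 3 fell in rank and 7 rose. The maintenance methyltransferase Dnmt1 went from 290 and 238 FPKM to 51.2, 63.5 and 88.7 FPKM, 25.7% left, and its partner Uhrf1 kept 23.7%. Tet3, the dioxygenase that oxidises 5-methylcytosine in the zygote, kept 69.6% (adjusted p = 0.0756) and rose by 6.37 points, and Dppa3, which protects the maternal genome from demethylation, kept 46.0% (log2 change −1.13, adjusted p = 0.00125, but 0.74 with equal totals). Dnmt3l, the cofactor of de novo methylation during oocyte growth, kept 4.58% and fell by 26.1 points, while Zfp57, which protects imprints, went from 1433 and 1071 FPKM to 95.1, 86.1 and 99.2 FPKM. Of 64 histone-modifying enzyme entries 34 rose and 11 fell. Kmt2c, a histone H3 lysine 4 methyltransferase, kept 93.4% and rose by 33.9 points, and Kat8, a histone H4 lysine 16 acetyltransferase, kept 0.525%.

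The largest changes over all entries were taken among called entries that reached 10 FPKM in the higher stage, with no overlap between libraries on the scale given. In rank they were mostly of mRNAs outside the lists, whereas on the deposited scale several were of list members. On the deposited scale the largest fall was that of Ftdc1, a ferritin domain gene of the antioxidant and ferritin list, from 1782 and 1925 FPKM to 2.67, 6.10 and 3.90 FPKM (log2 change −8.52 ± 0.30 SE, adjusted p = 1.43e-11). The related gene Ftdc2 kept 1.01%. Rps13, Timm17a and Paip2, list members described above, were also among the largest falls. So was Fam162a, outside the lists (log2 change −7.76 ± 0.26 SE, adjusted p = 1.43e-11). In rank, under the same limits, the largest falls were of an entry of Rnaset2b (84.3 points), Upp1, uridine phosphorylase (82.2), Ckb, brain creatine kinase (81.1), Arg2, mitochondrial arginase (80.7), and Fcf1, an rRNA processing factor (78.3). The largest rises in rank under these limits were of Smim11 (56.1 points), Mlxip (55.3), Axin2 (54.5), Ppp1r14b (45.6) and Ccp110 (44.8). Smim11 stood at 4.79 and 5.07 FPKM in GV and at 5.75, 14.5 and 15.2 FPKM in MII, with MII 1 close to the GV libraries. Mlxip, a glucose-sensing transcription factor, stood at 6.02 and 4.49 FPKM in GV and at 14.7, 7.82 and 11.8 FPKM in MII, and Axin2, a scaffold of the β-catenin destruction complex, at 7.17 and 4.22 FPKM against 10.5, 10.4 and 13.2 FPKM. Atxn2l, a stress granule protein, was higher on both scales, from 41.4 and 22.8 FPKM to 56.3, 63.5 and 66.9 FPKM (log2 change 0.99 ± 0.30 SE, adjusted p = 0.00544, 0.068 without GV 2). The count of 24 higher entries depended on the libraries, being 60 without MII 1, 6 without GV 2 and 15 without GV 1.

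Kept and lost mRNAs differed in length. Of 9309 tested entries with a unique name 8987 (96.5%) matched a protein-coding transcript, and these were divided into 5 equal bins by the length of the longest one. From the shortest bin (303 to 1682 bases) to the longest (4866 to 123179 bases) the median rank change was −9.20, −2.33, 1.21, 7.29 and 17.4 points. The median share left was 6.76, 11.4, 15.3, 24.7 and 32.5%. Across entries Spearman's rho of length with rank change was 0.39 and that of GC content −0.23, as a description, since entries share libraries. The classes differ in the same respect, with median lengths of 986.5 bases for large-subunit ribosomal proteins and 891.5 for oxidative phosphorylation against 3169 for hnRNP and SR proteins and 4691 for cohesin and condensin. How much of the difference between classes goes with length was not tested. The relation depended on the transcript chosen, and with the shortest transcript of each gene the bins had median changes of −0.29, −3.65, 0.03, 4.51 and 13.2 points, with rho at 0.23.

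Entries with and without the polyadenylation element also differed. Of the 6975 entries with a signal in the last 40 bases of the longest transcript, 1468 (21.0%) held an element in the last 100 bases. They had median GV levels of 12.8 FPKM with the element and 12.6 FPKM without, and median lengths of 3117 and 2973 bases. Of the entries with an element 961 (65.5%) rose in rank and 198 (13.5%) fell, and of the 5507 without 2151 rose and 1780 fell. Median rank changes were 12.7 and 1.72 points. Among entries with at least 10 FPKM in GV, the 847 with an element kept a median of 38.8% and the 3070 without kept 13.2%. The 3 MII libraries gave 36.6, 38.6 and 39.6% with the element and 12.1, 12.7 and 13.9% without, so the groups of entries lay apart by more than the libraries did. Under 10% was left of 17.5% of entries with an element and of 43.4% without, and at least 50% was kept by 39.2% and 16.3%.

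**Figure D5:**
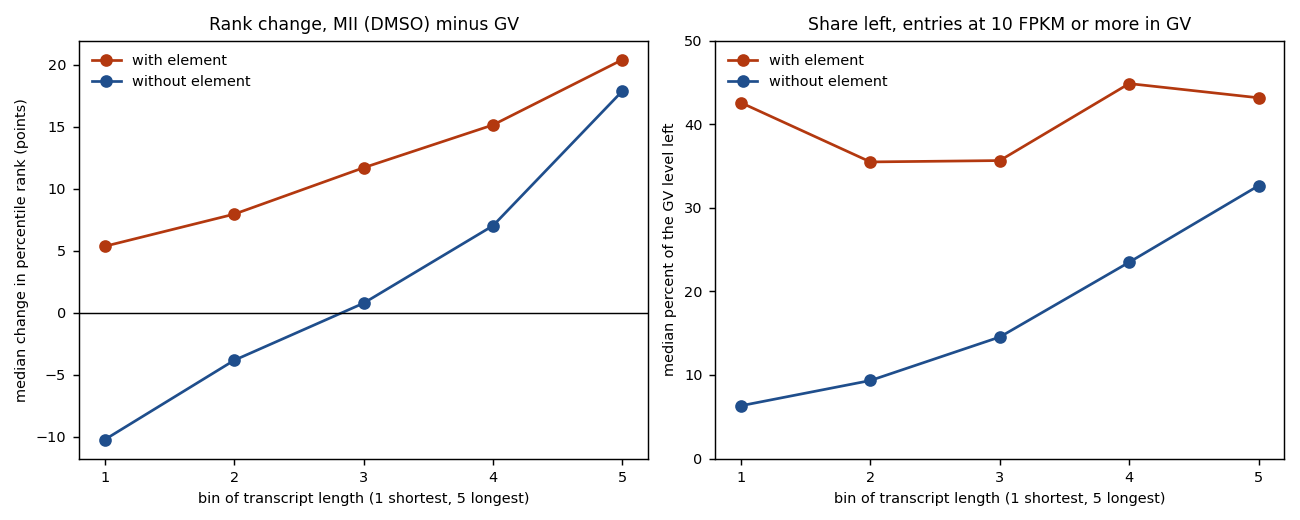
Median change in percentile rank (left, points) and median percent of the GV level left (right, entries with at least 10 FPKM in GV) against the bin of transcript length (1 shortest, 5 longest), for entries with and without a polyadenylation element. The line with the element lies above the line without in every bin, and the distance is largest in the shortest bin (5.36 against −10.2 points, 42.6 against 6.32%) and smallest in the longest (20.4 against 17.9 points, 43.2 against 32.7%).

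Within bins of length the entries with an element lay above those without in each case. Their median shares left were 42.6, 35.5, 35.7, 44.9 and 43.2% from the shortest to the longest bin, against 6.32, 9.34, 14.5, 23.5 and 32.7% without, which increased from bin to bin. The element was found in 10 of 22 oocyte-enriched family entries with a signal (45.5%), in 4 of 63 oxidative phosphorylation subunits (6.35%), in 6 of 33 large-subunit (18.2%) and 3 of 25 small-subunit ribosomal proteins, and in 5 of 35 hnRNP and SR proteins (14.3%), against 21.0% of all. Bcl2l10, Cks2, Cdc20, Cnot7, Cnot8 and Gdf9, whose sites are printed above and which were picked with their values in view, kept between 39.3 and 112%. Other named genes with an element kept less, such as Nlrp4c at 28.6%, Dicer1 at 30.5% and Wee2 at 32.8%. Ftdc1, Zp2, Tle6 and Npm2, without a match, kept between 0.228 and 5.45%, whereas Pttg1, Eif2ak3 and Cox6b2, also without a match, kept 79.1, 92.7 and 136%. A match is a description of the reference sequence and not evidence of a bound site, and the 3′ end used in the oocyte can differ from that of the longest annotated transcript.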

How the data were processed

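Smart-seq2 RNA-seq of 10-oocyte pools was taken for 2 GV and 3 MII (DMSO) libraries, grouped by their labels. The authors trimmed reads with Trim Galore 0.6.7, aligned them to mm10 with HISAT2 2.2.1 at default parameters, and ran Cufflinks 2.2.1 on uniquely mapped reads with UCSC gene models. The deposited values are FPKM, which the authors normalised to ERCC RNAs and then across batches by GV samples. The scaling factors and read depth are not given in the sources used here, and the tables list no ERCC or mitochondrial entries, so no counting interval could be given.

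Of 25912 listed entries (25164 names) 25908 were left after 4 with a non-numeric value. The 9382 entries with a mean of the 2 group means of at least 1 FPKM were tested on log2(FPKM + 1), and on percentile ranks among them within each library, with limma 3.58.1 in R 4.3.3 (eBayes with an intensity trend, Benjamini-Hochberg adjustment, threshold 0.05). Fold changes on this scale understate the change of low entries. Errors are SE of the fitted difference. Share left is the MII mean over the GV mean. Of the tested entries, 80 had repeated names and were kept as listed. Steps were tested on simulated data. Class membership followed symbols and RefSeq synonyms. Lengths and 3′ ends came from GENCODE vM21 (GRCm38, known at UCSC as mm10), and motifs were searched on the transcript strand only. Python 3.11.15, numpy 2.4.6, pandas 2.3.3, scipy 1.17.1 and matplotlib 3.10.9 were used.

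The gene lists, the genes named and the comparison were chosen with earlier results of these data known. Genes named are the 5 largest falls and rises on each scale among called entries without overlap between stages whose higher group reached 10 FPKM, in each list the members with the largest fall and rise in rank and the highest GV mean, and a fixed list of well-studied maternal genes. Elobl, Rn45s, Rps27l and Srsf9 fall outside that rule. Alternatives were a pseudocount of 0.1, a filter at 5 FPKM or none, equal totals, median centring, no trend, a minimum of 2-fold, all 7 libraries in the fit, normal scores, a replicate block, the shortest transcript and leaving out each library.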

Additional observations from a re-analysis of the deposited data

How the results depend on the processing

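Scaling mattered most. With equal totals 4773 entries were lower and 2184 higher, and with median centring 2566 and 4842. A filter at 5 FPKM left 5713 entries in place of 9382, of which 5080 were lower, 14 higher and 2440 higher in rank. A minimum of 2-fold left 7 higher. Without 1 library the higher count ranged from 6 (without GV 2) to 60 (without MII 1), and was 15 without GV 1. The other alternatives (no filter, no trend, all 7 libraries, normal scores, a pseudocount of 0.1) kept these counts within 1.5 times.

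The median log2 difference of −2.30 between stages became −2.80 with a pseudocount of 0.1. The rank difference between the highest and lowest decile of level went from −24.5 to −12.3 with deciles of the mean of both stages. Taking the shortest transcript, the difference between the longest and shortest bins went from 26.6 to 13.5 points and that between entries with and without the element from 10.98 to 12.2. By log2 change in place of rank, 37 of 47 classes stayed on the same side of the median of all entries, and of those farther from it than their spread between libraries 2 changed side, oocyte families to 1.42 and polyadenylation to −0.13. The cause was not tested.

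With equal totals the log2 change turned for Astl (0.56), Ccnb1 (0.76), Cnot6l (0.73), Cnot8 (1.17), Dcp2 (0.36), Dicer1 (0.17), Dppa3 (0.74), Gdf9 (0.56), Ldhb (0.37), Mos (0.95), Mrpl3 (0.91), Nlrp4c (0.10), Rpl22 (0.10), Tpx2 (1.10), Tut7 (0.44) and Wee2 (0.30). Without 1 library, 11 log2 calls and 11 rank calls of the genes named lost the threshold, and 11 log2 calls and 2 rank calls were gained.

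Replicate numbers are shared by the stages, but no source says that they mark a shared batch. The deviations of same-numbered libraries correlated at 0.479 and 0.278, while GV 2 correlated at 0.306 with MII 3. The deviations of the 2 GV libraries mirror each other, so these values are not independent. With the replicate block, which leaves 1 residual degree of freedom, 8238 entries were lower and 21 higher, and 3145 fell and 4099 rose in rank. Depth is unknown, so no counting error can be given for levels near 0.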

Other observations

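Classes not described above each held falls and rises in rank, in differing proportions. Among all tested entries 31.5% fell in rank and 40.9% rose. Of 55 tested replication entries 18 fell in rank and 26 rose, and of 60 DNA repair entries 18 fell and 29 rose. Rpa2, a subunit of the single-strand DNA binding protein, went from 122 and 112 FPKM to 0.250, 0.728 and 0.392 FPKM, whereas Tipin, a fork protection protein, kept 82.3% (adjusted p = 0.351) and rose by 31.6 points. Of 55 nuclear pore and transport entries 13 fell and 27 rose. Kpna2, an importin, went from 728 and 505 FPKM to 15.6, 11.4 and 18.9 FPKM, 2.49% left, and Nxf1, the mRNA export receptor, kept 1.75%. Of 33 actin nucleator and tubulin entries 14 fell and 11 rose. Fmn2, a formin needed for spindle migration, stood at 15.5 and 25.9 FPKM in GV and at 14.1, 26.9 and 20.4 FPKM in MII, and rose by 27.0 points. Of 16 calcium release and entry genes 2 fell and 9 rose, and Orai1, the store-operated channel, kept 0.628%.

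Of 80 RNA polymerase II, Mediator and TAF entries 28 fell and 32 rose, and of 205 Zfp entries 55 fell and 85 rose. Of 20 m6A and related entries 3 fell and 11 rose, and of 44 DEAD and DEAH box helicases 19 fell and 13 rose. Figla, a transcription factor of oocyte growth, went from 32.1 and 38.8 FPKM to 0.114, 0.0324 and 0.0929 FPKM, 0.225% left. Of 126 small nucleolar RNA entries (119 names) 1 was tested, Snora47, which was listed at 0 in both GV libraries and at 313, 0 and 692 FPKM in MII, so that its rise on the deposited scale rests on 2 of 3 libraries, and its rank did not pass the test (adjusted p = 0.0652, 0.0005 without MII 2).

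Of 18 oocyte transcription factor entries 4 fell in rank and 7 rose, of 16 Mos-MAPK and cAMP entries 4 fell and 9 rose, and of 41 histone and histone chaperone entries 8 fell and 13 rose. Of 74 chaperone entries 31 fell and 18 rose, and of 39 Rab GTPases 15 fell and 17 rose.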
